A study of Mus musculus with 18 samples.

Results

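The genes described here encode the machinery that turns a calcium signal into NFAT activity, in splenic B cells challenged in vivo. They were chosen by name and number 10 of the 18193 genes that the array's annotation names: the store-operated entry genes Stim1 and Orai1, the calcineurin genes Ppp3ca, Ppp3cb, Ppp3cc and Ppp3r1, the calcineurin regulator Rcan1, and the transcription factors Nfatc1, Nfatc2 and Nfatc3. Together they had 31 probe sets, the groups of short probes with which the array measures a transcript, and all 10 genes passed the filter on low signal through at least 1 probe set.

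When the antigen receptor of a B cell is crosslinked, BTK activates phospholipase C, which makes the messenger IP3 and empties the calcium store of the endoplasmic reticulum. STIM1 in the store's membrane senses the loss and opens ORAI1 channels in the plasma membrane, so that calcium enters from outside. Calcium and calmodulin then activate calcineurin, a phosphatase of a catalytic and a regulatory subunit, which strips phosphates from NFAT proteins and lets them enter the nucleus.

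RNA was measured in CD23+ B lymphocytes from spleens of C57BL/6J mice on Affymetrix Mouse Genome 430 2.0 arrays, 1 array per sample. PF-303, an inhibitor of BTK, or its vehicle was given 2 h before anti-IgD or PBS, and cells were collected 2 h after that. Anti-IgD is an antibody that crosslinks the IgD form of the B-cell receptor. There were 5 samples of anti-IgD with PF-303, 4 of anti-IgD with vehicle, 5 of PBS with PF-303 and 4 of PBS with vehicle, all of the same strain and with no transgene or deletion named. CD23 is carried mainly by follicular B cells, so other splenic B cells are represented only as far as they carry it. PBS with PF-303 shows the inhibitor without added crosslinking, and the labels do not say whether every sample is from its own mouse. P-values therefore reflect the spread among samples, part of which may be technical.

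The deposited values were MAS5 signals, a linear intensity in arbitrary units per probe set, and fold changes are given on the scale log2(signal + 16). The labelled cell type showed in its markers. All 8 B-cell markers on the array passed the filter, among them Fcer2a, the gene of CD23, at a mean signal of 2160 in anti-IgD with PF-303, 1750 in anti-IgD with vehicle, 2370 in PBS with PF-303 and 2510 in PBS with vehicle. The summed signal of the 10 T-cell markers on the array lay between 73 and 196 in the 4 groups, and Cd4 averaged at most 2.08 in any of them. That of the 7 macrophage and monocyte markers lay between 887 and 3070, with Lyz2 the largest contributor. In 6 arrays the signal of the spike-in controls was over 2 times its median over arrays: numbers 1 and 3 in anti-IgD with PF-303, numbers 3 and 4 in PBS with PF-303, numbers 3 and 4 in PBS with vehicle, but none in anti-IgD with vehicle. The ratio of the 3′ to the 5′ signal, a sign of RNA integrity, was 0.746 to 1.11 for Gapdh in anti-IgD with PF-303, 0.75 to 0.784 in anti-IgD with vehicle, 0.713 to 0.762 in PBS with PF-303 and 0.698 to 1.22 in PBS with vehicle.

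The sequences before the annotated starts of Orai1, Stim1 and Rcan1 are shown because these members gave the clearest rise, a clear fall and no call after anti-IgD, and because Rcan1 has separate starts with unlike sequence. Windows of 250 bases directly upstream were taken for 7 of the 10 members, 10 windows in all, from RefSeq on GRCm38.p6. They were searched on both strands for GGAAA, the core bound by NFAT, for TGANTCA, bound by AP-1, and for GCGTGGG, bound by EGR proteins, and matches of different motifs did not overlap in the windows printed. Capitals mark the matches, with TTTCC being GGAAA on the other strand.
Orai1, chr5:123014824-123015073, plus strand: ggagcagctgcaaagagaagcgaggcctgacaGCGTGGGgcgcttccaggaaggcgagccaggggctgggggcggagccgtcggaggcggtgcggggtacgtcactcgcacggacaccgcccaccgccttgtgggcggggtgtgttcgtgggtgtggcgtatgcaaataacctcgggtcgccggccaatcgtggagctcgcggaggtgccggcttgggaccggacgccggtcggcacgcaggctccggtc
Stim1, chr7:102267569-102267818, plus strand: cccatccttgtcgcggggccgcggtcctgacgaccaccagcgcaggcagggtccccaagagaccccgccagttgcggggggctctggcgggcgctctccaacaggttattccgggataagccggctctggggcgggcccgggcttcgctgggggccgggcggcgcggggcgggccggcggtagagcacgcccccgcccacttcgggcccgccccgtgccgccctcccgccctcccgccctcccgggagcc
Rcan1, internal start, chr16:92400079-92400328, minus strand: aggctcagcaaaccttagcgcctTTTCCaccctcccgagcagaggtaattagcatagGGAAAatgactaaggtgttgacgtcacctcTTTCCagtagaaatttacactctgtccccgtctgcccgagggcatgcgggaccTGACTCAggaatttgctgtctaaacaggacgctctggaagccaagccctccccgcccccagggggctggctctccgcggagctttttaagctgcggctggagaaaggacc
Rcan1, distal start, chr16:92466170-92466419, minus strand: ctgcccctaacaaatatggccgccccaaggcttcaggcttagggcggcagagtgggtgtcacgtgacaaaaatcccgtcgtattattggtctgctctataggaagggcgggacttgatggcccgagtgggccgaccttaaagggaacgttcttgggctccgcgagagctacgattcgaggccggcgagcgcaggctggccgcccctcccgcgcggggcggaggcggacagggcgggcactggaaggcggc
The Orai1 window held 1 EGR match and no GGAAA, and the Stim1 window held none of the 3 motifs. The internal Rcan1 window held 3 GGAAA matches and 1 AP-1 match, and the distal Rcan1 window held none. Among 32851 windows of the same length, 55.6% held GGAAA, 6.75% held TGANTCA and 4.3% held GCGTGGG. A match is a run of letters and not a shown binding site, and neither Rcan1 probe set could be assigned to one of its starts here.

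After anti-IgD, the ion channel gene Orai1 and the transcription factor gene Nfatc1 were higher, while the calcium sensor gene Stim1, the calcineurin subunit genes and the other NFAT genes were lower. Of the 10 members, 2 rose and 7 fell in vehicle-treated mice at an adjusted p under 0.05 in the limma fit over all genes, and Rcan1 was not called. In that comparison 47.9% of the 11104 genes tested were called, 17.3% as higher and 30.5% as lower, so being called is common. The members' median log2 fold change was -0.52, against -0.13 over all genes. When every array was shifted to 1 common median, the median over all genes moved to 0.04 and the calls over all genes turned to 2772 higher and 2178 lower, against 1926 higher and 3392 lower as deposited. Under that shift 3 members were higher and 6 lower, with Rcan1 added to those higher and Ppp3cb no longer called. A lower signal in sorted cells can come from fewer cells of a type or from less RNA per cell, and these cannot be told apart here.

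**Figure D1:**
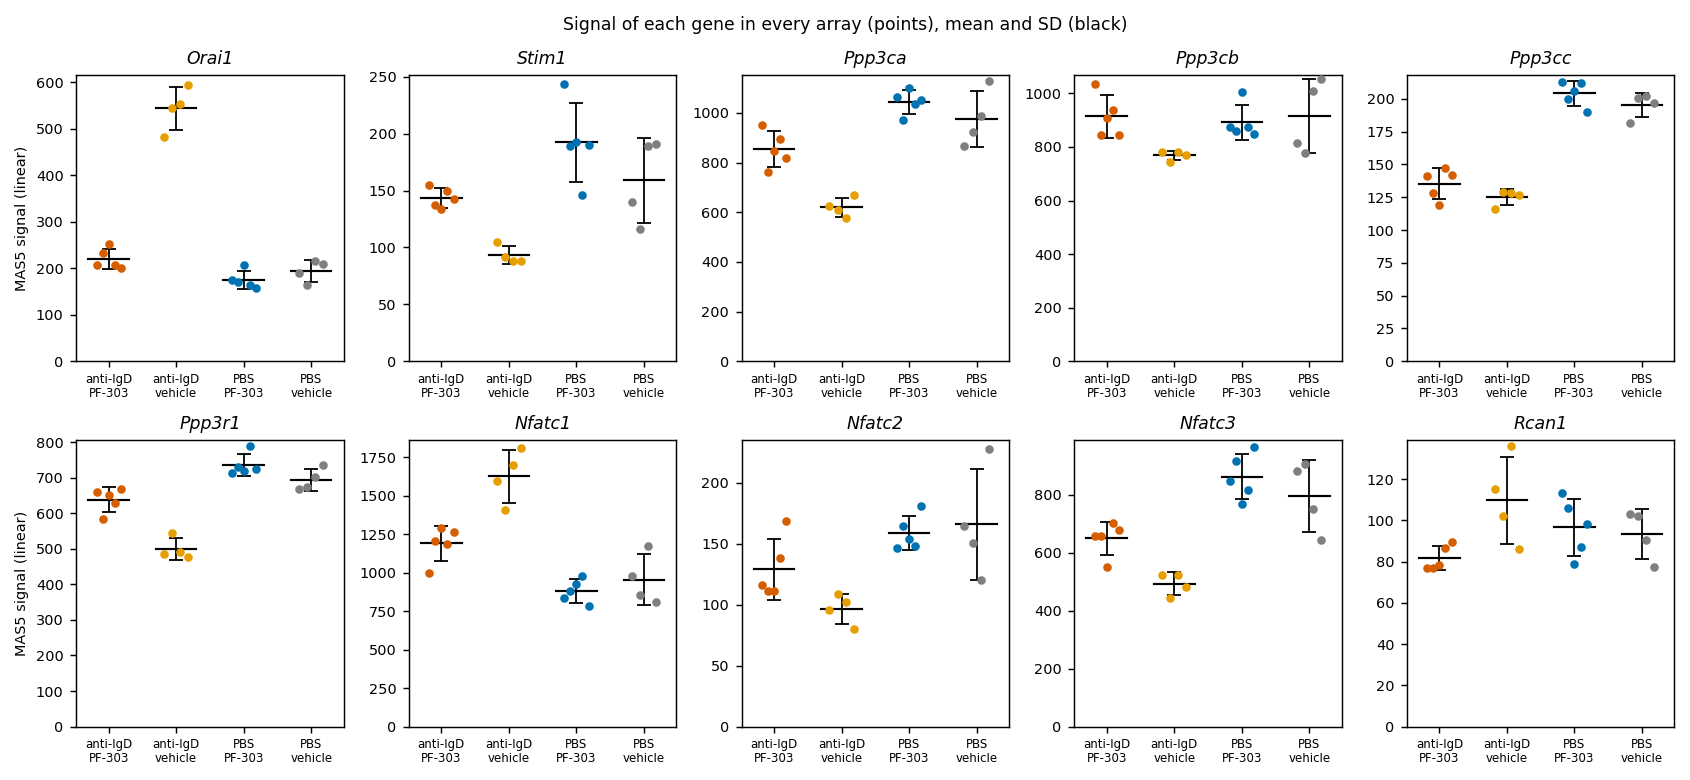
Signal of each of the 10 genes in every array on a linear axis from 0, with 1 panel per gene and the 4 groups from left to right as anti-IgD with PF-303, anti-IgD with vehicle, PBS with PF-303 and PBS with vehicle. Points are arrays, and black lines are the mean and SD. Orai1 lay between 483 and 595 in anti-IgD with vehicle and at or below 253 in every other array.

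By the probe set used for each gene, Orai1, the pore of the store-operated calcium channel, changed most with anti-IgD under vehicle. Its signals were 208, 232, 253, 207 and 200 in anti-IgD with PF-303, 483, 545, 553 and 595 in anti-IgD with vehicle, 175, 171, 208, 164 and 157 in PBS with PF-303, and 189, 164, 216 and 210 in PBS with vehicle. All 4 arrays of anti-IgD with vehicle thus stood above every array of the other groups, which lay close together. With vehicle, the mean was 544 ± 45.9 after anti-IgD and 195 ± 23.5 after PBS (SD, n = 4 each), a ratio of 2.79 and a log2 fold change of 1.41 ± 0.10 (SE, limma adjusted p = 1.5e-10). With anti-IgD, the mean was 220 ± 21.9 (SD, n = 5) with PF-303, 0.405 times that with vehicle, a log2 fold change of -1.25 ± 0.09 (adjusted p = 4.8e-09). Among the 11104 genes this change ranked 20 by the size of its t statistic. Anti-IgD still raised Orai1 in PF-303-treated mice, by 0.31 ± 0.09 on the log2 scale (adjusted p = 0.0098), with overlapping groups. The row letter of the position code in the labels is shared by anti-IgD and PBS arrays of vehicle-treated mice only in row C, where the log2 difference of Orai1 was 1.76 with 1 array each. With PF-303 against vehicle after anti-IgD it was -1.47 in that row, with 2 arrays against 1. The other called members had the sign of the fit in row C in both comparisons, at -0.02 for Ppp3cb after anti-IgD and at -0.05 for Rcan1 with PF-303. For anti-IgD against PBS under PF-303, the difference of Orai1 was 0.44 in row F, with 2 arrays against 1. In row G it was -0.01, with 1 array each.

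Stim1, the sensor of the calcium store, moved the opposite way. Signals were 155, 137, 134, 150 and 143 in anti-IgD with PF-303, 105, 91.3, 88.1 and 88.5 in anti-IgD with vehicle, 244, 189, 193, 146 and 190 in PBS with PF-303, and 140, 116, 189 and 191 in PBS with vehicle. The arrays of anti-IgD with vehicle were the lowest and overlapped no other group, whereas the PBS groups spread widely and overlapped each other. In vehicle-treated mice Stim1 fell by 0.66 ± 0.13 on the log2 scale with anti-IgD (limma adjusted p = 0.00032). After anti-IgD it was higher with PF-303 than with vehicle by 0.55 ± 0.13 (adjusted p = 0.0021), a call that was lost at much the same size, 0.52, when the row letter entered the fit as a block. Without the 6 high spike-in arrays the fall under vehicle was smaller, with a log2 fold change of -0.40 that was still called (adjusted p = 0.0097). With PF-303 the fall after anti-IgD was 0.37 ± 0.12 in size (adjusted p = 0.02). The log2 difference was -0.29 without replicate 1 of PBS with PF-303, the array at 244, and -0.33 with the row block, and neither was called. The dimmer Stim1 probe set 1436945_x_at, tested alone, gave -0.35 ± 0.12 with anti-IgD under vehicle (limma adjusted p = 0.018). Under PF-303 it gave -0.18 ± 0.10 (adjusted p = 0.22), and PF-303 after anti-IgD gave 0.33 ± 0.11 (adjusted p = 0.033). Its signals in anti-IgD with vehicle, 46.6 to 69.2, overlapped those in PBS with vehicle, 63.4 to 86.8.

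The catalytic subunit gene Ppp3ca showed the same order of groups. It had signals of 953, 763, 848, 893 and 818 in anti-IgD with PF-303, 626, 608, 578 and 669 in anti-IgD with vehicle, 1063, 971, 1101, 1034 and 1051 in PBS with PF-303, and 865, 922, 989 and 1127 in PBS with vehicle. Arrays of anti-IgD with vehicle were lowest, and stimulated arrays of PF-303-treated mice lay below PBS with PF-303 but overlapped PBS with vehicle. Ppp3ca fell by 0.64 ± 0.09 on the log2 scale with anti-IgD under vehicle (limma adjusted p = 2.1e-06). It was 0.45 ± 0.08 higher with PF-303 than with vehicle after anti-IgD (adjusted p = 0.00018). With PF-303 it fell by 0.29 ± 0.08 after anti-IgD (adjusted p = 0.0055).

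Ppp3r1 encodes the regulatory, calcium-binding subunit, and it moved like Ppp3ca. Its signals ranged from 584 to 669 in anti-IgD with PF-303 and from 476 to 544 in anti-IgD with vehicle, against 713 to 791 in PBS with PF-303 and 668 to 735 in PBS with vehicle. Anti-IgD with vehicle overlapped no other group, and anti-IgD with PF-303 lay below PBS with PF-303 but met the lowest arrays of PBS with vehicle. The log2 fold change with anti-IgD was -0.20 ± 0.06 with PF-303 (limma adjusted p = 0.015) and -0.46 ± 0.07 with vehicle (adjusted p = 7.6e-06). After anti-IgD, PF-303 against vehicle gave 0.35 ± 0.07 (adjusted p = 3e-04). When arrays were shifted to 1 median, the first of these calls was lost at -0.16 and the second value was -0.30. The row block also ended the first call, at -0.15. Averaging the gene's probe sets ended the call of PF-303 after anti-IgD, at 0.16.

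Ppp3cc, the catalytic subunit best known from testis but also present in lymphocytes, fell with anti-IgD both with PF-303 and with vehicle. Signals were 119 to 147 in anti-IgD with PF-303 and 116 to 129 in anti-IgD with vehicle, against 190 to 213 in PBS with PF-303 and 182 to 202 in PBS with vehicle. Both stimulated groups lay below both PBS groups and overlapped each other. The log2 fold change with anti-IgD was -0.54 ± 0.07 with PF-303 (limma adjusted p = 2.7e-06) and -0.59 ± 0.08 with vehicle (adjusted p = 2.2e-06). PF-303 against vehicle after anti-IgD gave 0.10 ± 0.07 (adjusted p = 0.33, 95% interval -0.05 to 0.26), and with the gene's probe sets averaged it was called at 0.29 (adjusted p = 0.0039).

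Ppp3cb, the remaining catalytic subunit, gave the weakest calls. It had signals of 1036, 844, 910, 938 and 844 in anti-IgD with PF-303, 783, 745, 780 and 769 in anti-IgD with vehicle, 874, 860, 1005, 874 and 847 in PBS with PF-303, and 815, 778, 1010 and 1055 in PBS with vehicle. Anti-IgD with vehicle was low and tight, but 1 PBS array with vehicle, at 778, lay within its range. The log2 fold change was -0.23 ± 0.09 with anti-IgD under vehicle (limma adjusted p = 0.045) and 0.24 ± 0.09 with PF-303 after anti-IgD (adjusted p = 0.045). Of 32 alternative settings, 19 lost the first call and 17 the second, and averaging the gene's 5 probe sets turned them to 0.13 (adjusted p = 0.16) and -0.16 (adjusted p = 0.083). The first was -0.05 without the 6 high spike-in arrays and -0.07 with arrays shifted to 1 median.

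Nfatc1, whose product is the NFAT protein that amplifies its own gene in lymphocytes, rose with anti-IgD. It had signals of 998, 1203, 1292, 1189 and 1264 in anti-IgD with PF-303, 1595, 1404, 1696 and 1811 in anti-IgD with vehicle, 838, 879, 928, 979 and 782 in PBS with PF-303, and 980, 853, 1175 and 808 in PBS with vehicle. Stimulated arrays without inhibitor were highest, and those with inhibitor lay above PBS with PF-303 but overlapped PBS with vehicle. With anti-IgD the log2 fold change was 0.42 ± 0.10 with PF-303 (limma adjusted p = 0.002) and 0.77 ± 0.11 with vehicle (adjusted p = 5.9e-06). PF-303 against vehicle after anti-IgD gave -0.45 ± 0.11 (adjusted p = 0.0025). With the gene's probe sets averaged, the first of these values was 0.69. Tested alone, 1417621_at rose with anti-IgD by 1.11 ± 0.08 with PF-303 and 1.21 ± 0.09 with vehicle. For 1425761_a_at the rises were 1.23 ± 0.09 and 1.36 ± 0.10.

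The genes of the other NFAT proteins, Nfatc2 and Nfatc3, fell with anti-IgD. Nfatc3 signals were 551 to 702 in anti-IgD with PF-303 and 442 to 524 in anti-IgD with vehicle, against 769 to 963 in PBS with PF-303 and 643 to 907 in PBS with vehicle. Neither stimulated group overlapped its PBS group. Nfatc3 changed by -0.40 ± 0.09 on the log2 scale with anti-IgD in PF-303-treated mice (limma adjusted p = 0.0017) and by -0.66 ± 0.10 in vehicle-treated mice (adjusted p = 1.4e-05), and PF-303 against vehicle after anti-IgD gave 0.39 ± 0.10 (adjusted p = 0.0045). Nfatc2, the NFAT protein known for its steady presence in resting lymphocytes, had signals of 116, 111, 111, 138 and 169 in anti-IgD with PF-303, 95.3, 109, 102 and 79.8 in anti-IgD with vehicle, 147, 165, 154, 148 and 181 in PBS with PF-303, and 165, 151, 120 and 228 in PBS with vehicle. Anti-IgD with vehicle was the lowest group and did not overlap the others. Nfatc2 fell by 0.67 ± 0.15 with anti-IgD under vehicle (adjusted p = 0.00063), and its log2 fold change was -0.39 with its probe sets averaged. With PF-303 the anti-IgD difference of Nfatc2 was -0.28 ± 0.13 (adjusted p = 0.11). PF-303 against vehicle after anti-IgD gave 0.36 ± 0.14 (adjusted p = 0.057), which passed the threshold in 10 of 32 alternative settings, at up to 0.63, and at 0.45 without the 6 high spike-in arrays (adjusted p = 0.0095). Without replicate 5 of anti-IgD with PF-303, the array at 169, the anti-IgD difference with PF-303 was called at -0.38.

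Rcan1 encodes a protein that binds and inhibits calcineurin, and its internal promoter is a known NFAT target. The signals were 76.9, 76.7, 78.5, 86.6 and 89.4 in anti-IgD with PF-303, 115, 102, 136 and 86.2 in anti-IgD with vehicle, 113, 106, 78.9, 87 and 98.1 in PBS with PF-303, and 103, 102, 90.6 and 77.2 in PBS with vehicle. All groups overlapped, and the highest values were those of 2 arrays of anti-IgD with vehicle. With anti-IgD the log2 difference was -0.20 ± 0.11 with PF-303 (limma adjusted p = 0.18) and 0.19 ± 0.12 with vehicle (adjusted p = 0.21, 95% interval -0.06 to 0.45). With arrays shifted to 1 median, the difference under vehicle was 0.36 (adjusted p = 0.02). Rcan1 was lower with PF-303 than with vehicle after anti-IgD, with a log2 fold change of -0.35 ± 0.12 (adjusted p = 0.027). Of 32 alternative settings 8 lost that call, among them the row letter as a block, which gave -0.18, leaving out replicate 4 of anti-IgD with vehicle, which gave -0.26, and the 6 high spike-in arrays, which gave -0.32.

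Markers of B cells themselves were lower in the group in which most members were lower. The summed signal of the 8 B-cell markers was 21803 to 32417 in anti-IgD with PF-303 and 15445 to 18389 in anti-IgD with vehicle, against 21495 to 36770 in PBS with PF-303 and 21746 to 40617 in PBS with vehicle. No B-cell marker was at or below the filter level in any group. The summed signal of 5 stromal and endothelial markers was 139 to 189 in anti-IgD with PF-303 and 92 to 132 in anti-IgD with vehicle, against 218 to 377 in PBS with PF-303 and 189 to 383 in PBS with vehicle. Only Pecam1 of these 5 passed the filter, and the other four were below it in every group. The summed signal of 6 marginal zone and B1 B-cell markers was 2511 to 3472 in anti-IgD with PF-303 and 1556 to 1942 in anti-IgD with vehicle, against 2448 to 2805 in PBS with PF-303 and 2156 to 3166 in PBS with vehicle. That of 5 germinal centre B-cell markers was 142 to 230 in anti-IgD with PF-303 and 216 to 312 in anti-IgD with vehicle, against 85 to 158 in PBS with PF-303 and 124 to 207 in PBS with vehicle. Anti-IgD with vehicle was thus the lowest group for the B-cell, stromal and marginal zone sums, with no overlap, and lay above both PBS groups for the germinal centre sum. Rgs13 alone carried that higher sum, at a mean of 199 in anti-IgD with vehicle, against 35.1 in PBS with PF-303 and 57.7 in PBS with vehicle. Mybl1, S1pr2, Gcsam and Fas averaged less in anti-IgD with vehicle than in either PBS group. Among the B-cell markers, Cr2 was not lowest in anti-IgD with vehicle, at a mean of 2430 against 2330 in PBS with PF-303. Dtx1 and Cd1d1 made up most of the marginal zone sum, at means of 1160 and 324 in anti-IgD with vehicle. Bhlhe41 and Zbtb32, near the filter level, were not lowest there. The part of these shifts in the members' changes was not tested.

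PF-303 against vehicle called 8 of the 10 members after anti-IgD. Of these, 5 were higher with PF-303 than with vehicle (Nfatc3, Ppp3ca, Ppp3cb, Ppp3r1 and Stim1) and 3 were lower (Orai1, Nfatc1 and Rcan1), while Nfatc2 and Ppp3cc were not called. The background was 30.1% of genes called, 19.8% higher and 10.3% lower. With arrays shifted to 1 median, 4 members were higher and 3 lower, and the calls over all genes turned to 1283 higher and 1690 lower, against 2195 higher and 1146 lower as deposited. Both comparisons use the same 4 arrays of stimulated, vehicle-treated mice, so their values are not independent. Under PF-303, a comparison that shares none of those arrays, anti-IgD against PBS gave 2 members higher (Nfatc1 and Orai1) and 5 lower (Nfatc3, Ppp3ca, Ppp3cc, Ppp3r1 and Stim1), with 33.8% of all genes called, 14.7% higher and 19.1% lower.

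In PBS-treated mice, PF-303 against vehicle called 0 of the 10 members in limma, 0 of them had an unadjusted p under 0.05, and 0.693% of all genes were called, 0.063% higher and 0.63% lower. The smallest adjusted p was 0.48, for Stim1, whose log2 difference was 0.26 ± 0.13 (unadjusted p = 0.052). The 95% intervals of the 10 members lay between -0.34 and 0.53, so differences beyond these bounds are not covered by them. Without the 6 high spike-in arrays, Stim1 was called at 0.63 (adjusted p = 0.031). Of PBS with vehicle, that fit kept only replicates 1 and 2, with Stim1 signals of 140 and 116. It left out replicates 3 and 4, at 189 and 191.

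Whether the inhibitor changed the anti-IgD response itself was tested as an interaction, the response with PF-303 minus that with vehicle. Orai1 was the member called, at -1.11 ± 0.13 on the log2 scale (limma adjusted p = 2.4e-05), which ranked 18 of 11104 genes by the size of its t statistic, and 9.74% of all genes were called, 6.63% higher and 3.11% lower. The interaction of Orai1 lay between -1.3 and -0.98 in 31 alternative settings. Ppp3ca at 0.35 ± 0.11 (adjusted p = 0.056) and Ppp3r1 at 0.26 ± 0.09 (adjusted p = 0.072) came next. The interaction of Nfatc1 was -0.34 ± 0.15 (adjusted p = 0.16), but it was called at -0.33 with the gene's probe sets averaged (adjusted p = 0.039) and at -0.45 without replicate 3 of PBS with vehicle (adjusted p = 0.048). Its probe sets differed when tested alone. The interaction was -0.10 ± 0.12 for 1417621_at (limma adjusted p = 0.7) and -0.13 ± 0.14 for 1425761_a_at (adjusted p = 0.63). For the dim 1447084_at it was called, at -0.92 ± 0.18 (adjusted p = 0.0035). The interaction of Nfatc3 was called at 0.43 without the 6 high spike-in arrays (adjusted p = 0.035).

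**Figure D2:**
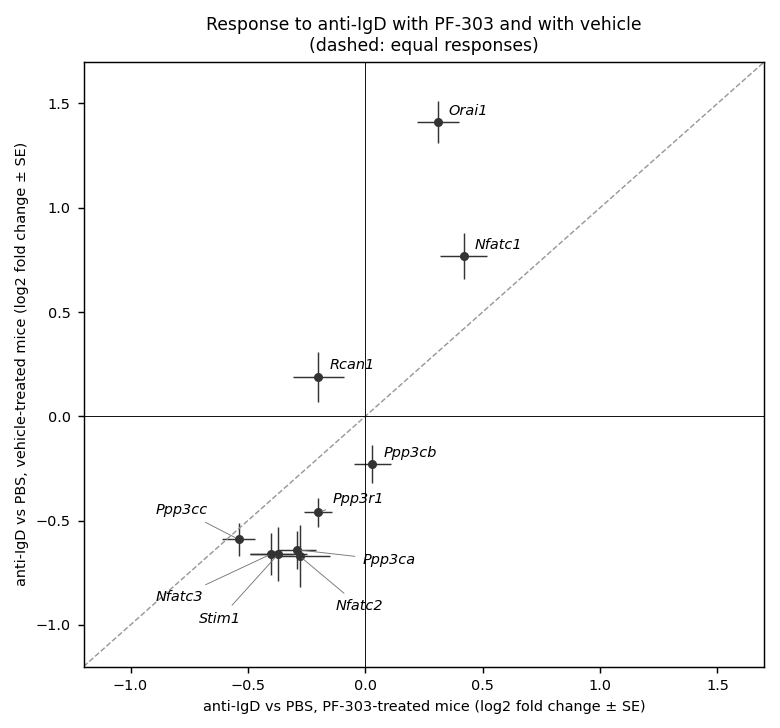
Log2 fold change of anti-IgD against PBS under PF-303 (horizontal axis) and under vehicle (vertical axis) for the 10 genes, with SE bars in both directions. The dashed line marks equal responses. Orai1 stands farthest above the line, at 0.31 and 1.41, and Ppp3cc lies on it within its errors, at -0.54 and -0.59.

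Probe sets of 1 gene can report different transcripts or differ in quality, so each was also tested alone, with p adjusted over all 24947 probe sets that passed the filter. Of the 31 member probe sets 27 passed, and the 4 that did not were all of Nfatc2. With anti-IgD in vehicle-treated mice 6 of the 27 were higher and 12 lower, with 40.2% of all probe sets called, 16.8% higher and 23.4% lower. With PF-303 after anti-IgD, 9 were higher and 8 lower, with 26% of all probe sets called, 13.1% higher and 12.9% lower. Under PF-303, anti-IgD gave 6 higher and 9 lower, with 26.8% of all called, 11.6% higher and 15.2% lower. Both Orai1 probe sets moved alike, since 1424989_at gave 1.27 ± 0.16 with anti-IgD under vehicle, -1.10 ± 0.15 with PF-303 after anti-IgD and -0.85 ± 0.21 in the interaction (limma adjusted p = 0.021).

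**Figure D3:**
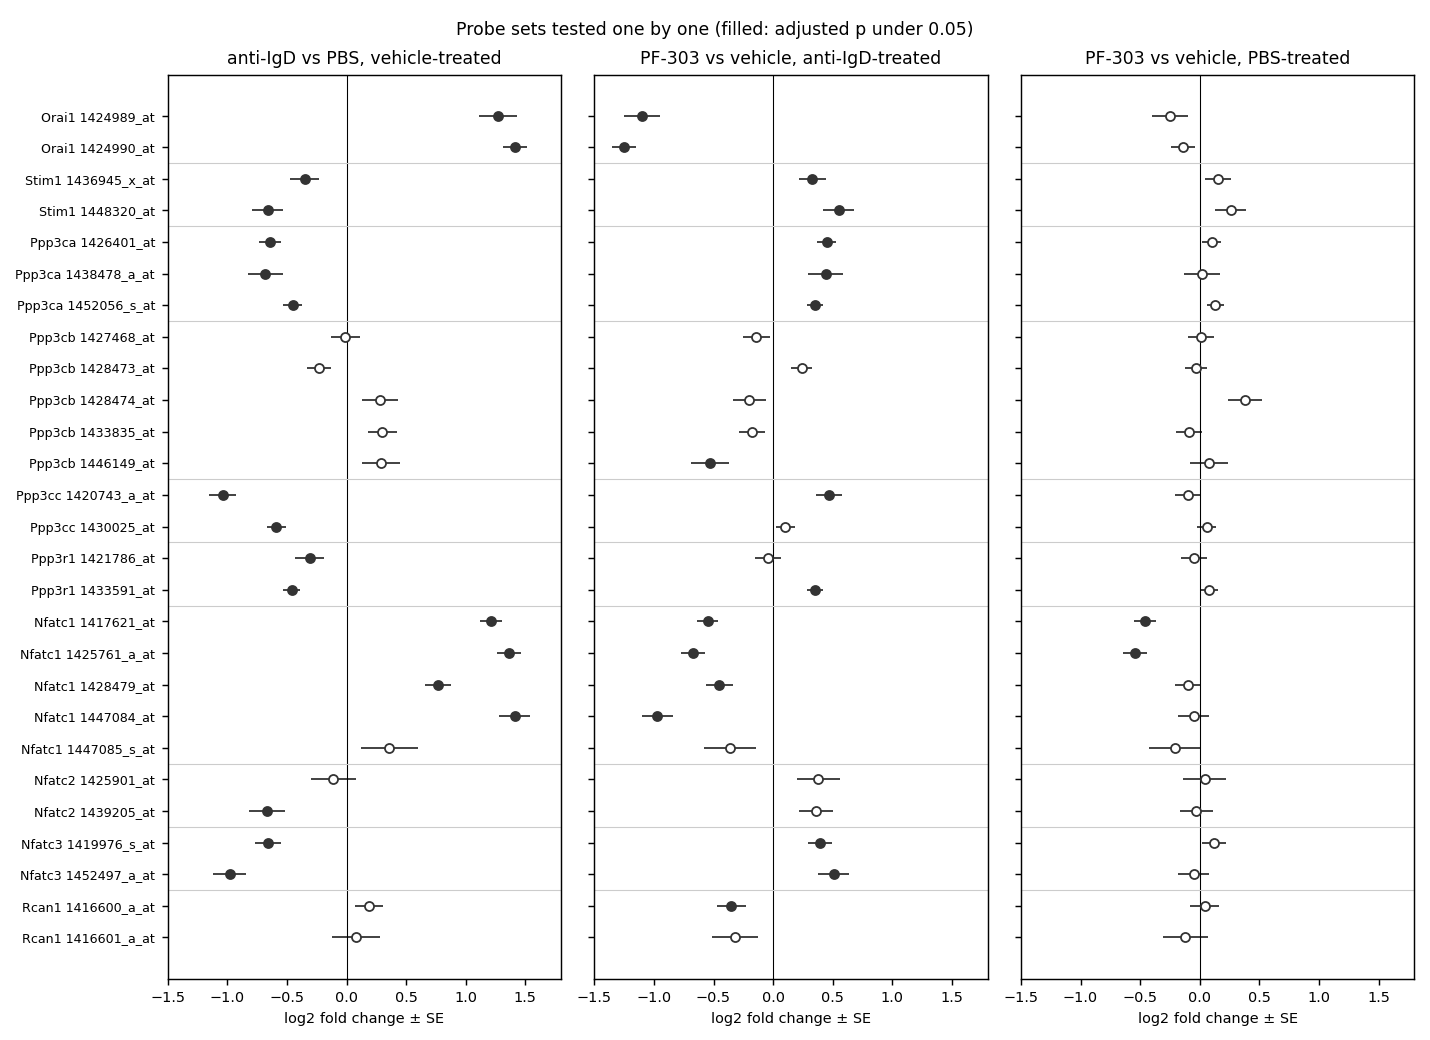
Log2 fold change ± SE of the 27 member probe sets that passed the filter, for anti-IgD against PBS with vehicle, for PF-303 against vehicle with anti-IgD and for PF-303 against vehicle with PBS. Filled points have an adjusted p under 0.05 over all probe sets. Orai1 lies far from 0 in the first 2 panels, the 5 Ppp3cb probe sets scatter around 0 in both directions, and 2 Nfatc1 probe sets are the filled points of the last panel.

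The 5 Ppp3cb probe sets did not share a direction. With anti-IgD in vehicle-treated mice 1428473_at, the brightest, gave -0.23 ± 0.10 (limma adjusted p = 0.06), whereas 1433835_at gave 0.30 ± 0.12 (adjusted p = 0.05). Signals of 1433835_at were 260 to 328 in anti-IgD with PF-303 and 322 to 378 in anti-IgD with vehicle, against 213 to 335 in PBS with PF-303 and 251 to 348 in PBS with vehicle. No Ppp3cb probe set was called in that comparison, and only the dim 1446149_at was called after PF-303, at -0.53 ± 0.16 (adjusted p = 0.015).

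Ppp3cc also depended on the probe set. Signals of 1420743_a_at were 161, 136, 133, 143 and 140 in anti-IgD with PF-303, 103, 131, 85 and 81.7 in anti-IgD with vehicle, 184 to 227 in PBS with PF-303 and 192 to 237 in PBS with vehicle. The stimulated arrays with vehicle were the lowest and overlapped no other group, whereas the stimulated groups overlapped for 1430025_at, the probe set used for the gene. 1420743_a_at gave -1.04 ± 0.11 with anti-IgD under vehicle (limma adjusted p = 1.6e-07), 0.47 ± 0.11 with PF-303 after anti-IgD (adjusted p = 0.0025) and an interaction of 0.57 ± 0.15 (adjusted p = 0.029). The change of 1420743_a_at minus that of 1430025_at with PF-303 after anti-IgD was 0.37 by an exact two-sided permutation test over arrays (p = 0.024, 0.096 after Benjamini-Hochberg adjustment over 20 such comparisons of probe set pairs, chosen after the values were seen).

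Nfatc1 is known to be made from alternative promoters and last exons, and its probe sets differed from each other. The probe sets 1417621_at and 1425761_a_at were lower with PF-303 even without anti-IgD, and they were the 2 member probe sets called in PBS-treated mice, where 0.565% of all probe sets were, 0.0401% as higher and 0.525% as lower. Signals of 1425761_a_at were 344, 302, 338, 294 and 271 in anti-IgD with PF-303, 464, 549, 467 and 527 in anti-IgD with vehicle, 111, 120, 142, 119 and 121 in PBS with PF-303, and 181, 151, 194 and 218 in PBS with vehicle. The 4 groups did not overlap. In PBS-treated mice the log2 fold change with PF-303 was -0.54 ± 0.10 for 1425761_a_at (limma adjusted p = 0.007) and -0.46 ± 0.09 for 1417621_at (adjusted p = 0.0094), against -0.10 ± 0.11 for 1428479_at (adjusted p = 0.83), the brightest and the one used for the gene. The change of 1425761_a_at minus that of 1428479_at was -0.44 (exact two-sided permutation test, p = 0.0079, the smallest possible, 0.04 after adjustment over the 20 comparisons). For 1417621_at minus 1428479_at it was -0.36 (exact two-sided permutation test, p = 0.11, adjusted 0.22), which did not pass. With only the groups of the contrast in the fit neither probe set was called. Without the 6 high spike-in arrays both values were -0.45 (limma adjusted p = 0.12 for 1425761_a_at and 0.13 for 1417621_at), and the called member probe set was then that of Stim1.

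The dim Nfatc1 probe set 1447084_at showed a different pattern. Signals were 50.8, 62.1, 46.8, 41 and 61 in anti-IgD with PF-303, 107, 116, 128 and 119 in anti-IgD with vehicle, 33.7, 37.4, 25.5, 37.7 and 28.3 in PBS with PF-303, and 41.7, 39, 25.5 and 31.5 in PBS with vehicle. Arrays of anti-IgD with vehicle stood far above the rest, and the PBS groups overlapped. Tested alone, 1447084_at rose by 1.41 ± 0.13 with anti-IgD under vehicle (limma adjusted p = 1.8e-08). Its interaction was -0.92 ± 0.18 (limma adjusted p = 0.0035), in a test in which 4 of the 27 member probe sets were called, against 6.43% of all, 3.62% higher and 2.81% lower. The other three were both Orai1 probe sets and 1420743_a_at of Ppp3cc. Without the 6 high spike-in arrays only 1424990_at of Orai1 was called, at -1.22 (limma adjusted p = 0.00022), and 1447084_at gave -0.72 (adjusted p = 0.053). The change of 1447084_at minus that of 1428479_at with PF-303 after anti-IgD was -0.53 (exact two-sided permutation test, p = 0.0079, adjusted 0.04). The probe positions within Nfatc1 were not analysed here.

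**Figure D4:**
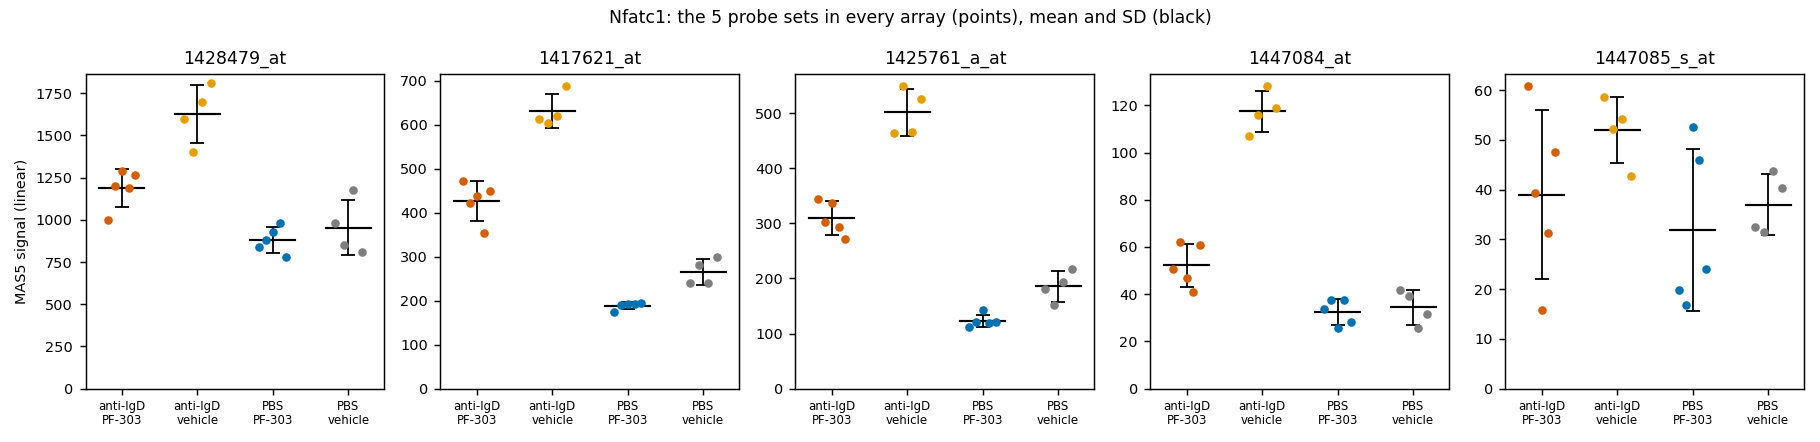
Signal of the 5 Nfatc1 probe sets in every array on linear axes from 0, with the 4 groups from left to right as anti-IgD with PF-303, anti-IgD with vehicle, PBS with PF-303 and PBS with vehicle. Points are arrays, and black lines are the mean and SD. In PBS-treated mice the PF-303 arrays lie below the vehicle arrays for 1417621_at (174 to 194 against 240 to 299) and overlap them for 1428479_at (782 to 979 against 808 to 1175).

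Genes whose level followed a member across the 18 arrays were listed for 4 members as a description. Correlations over all arrays include the group differences, which all arrays of a group share, so those within groups are given too. Over 18 arrays the genes most like Nfatc1 were Wdr74 (Pearson's r = 0.97), Abcf1 (0.97) and Ppp1r14b (0.96), with correlations of 0.89, 0.85 and 0.83 once group means were removed. Those most like Ppp3ca were Panx1 (0.98), Fam111a (0.98) and Spib (0.97), with 0.87, 0.85 and 0.80 within groups. For Stim1 they were Mtch1 (0.95), Zswim1 (0.93) and Sgsh (0.92), with 0.76, 0.75 and 0.66 within groups. Rcan1 had the loosest followers, Iws1 (0.81), Ipmk (0.79) and Nemf (0.78), with 0.72, 0.63 and 0.72 within groups.

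Other genes of the pathway were followed in 5 lists. For comparison, anti-IgD under vehicle called 17.3% of all genes as higher and 30.5% as lower, at a median of -0.13. Among the 14 tested of 17 calcineurin partners and NFAT relatives, 3 were higher and 4 lower with anti-IgD under vehicle, with a median log2 fold change of -0.09. Fkbp1a, the protein through which tacrolimus blocks calcineurin, averaged 710 ± 102 in anti-IgD with PF-303 and 1117 ± 162 in anti-IgD with vehicle, against 599 ± 165 in PBS with PF-303 and 585 ± 239 in PBS with vehicle, and its log2 fold change with anti-IgD under vehicle was 1 ± 0.23 (limma adjusted p = 0.00087). Akap1, a mitochondrial anchoring protein, rose by 0.85 ± 0.24 (adjusted p = 0.0058), from a mean near the filter level, 14.7 in PBS with vehicle, to 38.4. Tfeb, a transcription factor that calcineurin dephosphorylates, fell by 0.98 ± 0.14 (adjusted p = 3.9e-06), and its interaction was 0.84 ± 0.18 (adjusted p = 0.0063). Cabin1, which binds and inhibits calcineurin, fell by 0.60 ± 0.11 (adjusted p = 0.00011).

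Of the 8 NFAT kinases, which return NFAT to the cytoplasm, 1 was higher and 4 lower with anti-IgD under vehicle, against 17.3% and 30.5% of all genes, with a median of -0.31. Csnk1d, a casein kinase, rose by 0.32 ± 0.08 (limma adjusted p = 0.0033). Gsk3b fell by 0.50 ± 0.11 (adjusted p = 4e-04) and Dyrk2 by 0.45 ± 0.10 (adjusted p = 0.00059). After anti-IgD, 1 of the 8 was lower with PF-303, against 10.3% of all genes, and the others were not called, with a median of 0.14. Among the 10 tested of 18 genes of IP3, calmodulin and the calmodulin kinases, 5 fell with anti-IgD under vehicle, against 30.5% of all genes, and the others were not called, with a median of -0.26. No calmodulin gene was among those tested. The IP3 receptor Itpr3 averaged 497 ± 83.6 in anti-IgD with PF-303 and 342 ± 26.8 in anti-IgD with vehicle, against 548 ± 65.8 in PBS with PF-303 and 586 ± 42.4 in PBS with vehicle. Plcg2, the phospholipase that BTK activates, averaged 1482 ± 89.1 in anti-IgD with PF-303 and 960 ± 74.5 in anti-IgD with vehicle, against 1572 ± 87.7 in PBS with PF-303 and 1535 ± 92.1 in PBS with vehicle. For both, anti-IgD with vehicle was the lowest group, and the interaction was called at 0.61 ± 0.14 for Itpr3 (adjusted p = 0.0099) and at 0.59 ± 0.11 for Plcg2 (adjusted p = 0.0014).

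Of 21 tested genes among 28 store-operated entry partners, pumps and channels, 3 were higher and 11 lower with anti-IgD under vehicle, against 17.3% and 30.5% of all genes, with a median of -0.26. Atp2a2, the pump that refills the store, rose by 0.82 ± 0.09 (limma adjusted p = 2.6e-07), and P2rx4, an ATP-gated channel, by 0.76 ± 0.09 (adjusted p = 6.1e-07). Orai2, a channel relative of Orai1, fell by 0.73 ± 0.11 (adjusted p = 1.2e-05), and P2rx7, another ATP-gated channel, by 0.69 ± 0.18 (adjusted p = 0.0037) at signals near the filter level. Orai3 and Stim2 were named after their values were seen, because they complete the ORAI and STIM families. Orai3 averaged 196 ± 15.4 in anti-IgD with PF-303 and 123 ± 11.4 in anti-IgD with vehicle, against 183 ± 14.2 in PBS with PF-303 and 173 ± 17.3 in PBS with vehicle. It fell by 0.45 ± 0.09 (adjusted p = 0.00032), with an interaction of 0.54 ± 0.12 (adjusted p = 0.0079). Orai1 was thus the ORAI gene that rose, and in that comparison, anti-IgD under vehicle, the directions and calls of Orai1, Orai2 and Orai3 were the same with arrays shifted to 1 median or quantile normalized. Stim2 averaged 296 ± 34.9 in anti-IgD with PF-303 and 283 ± 16.7 in anti-IgD with vehicle, against 298 ± 14.7 in PBS with PF-303 and 276 ± 13.5 in PBS with vehicle. Stim2 gave 0.04 ± 0.08 with anti-IgD under vehicle (adjusted p = 0.76). After anti-IgD, 6 of the 21 were higher and 2 lower with PF-303, close to the 19.8% and 10.3% of all genes, with a median of 0.15.

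Genes linked to NFAT in lymphocytes made the one list that mostly rose. Like the others, this list was chosen with earlier results of these data known. Its share of rises is therefore no test of NFAT activity. Of 11 tested among 17, 9 were higher and 1 lower with anti-IgD under vehicle, against 17.3% and 30.5% of all genes, with a median of 2.14. The transcription factor gene Egr2 averaged 733 ± 67.5 in anti-IgD with PF-303 and 2599 ± 321 in anti-IgD with vehicle, against 11.7 ± 2.98 in PBS with PF-303 and 62.7 ± 19.8 in PBS with vehicle. The nuclear receptor gene Nr4a3 averaged 110 ± 26.9 in anti-IgD with PF-303 and 1002 ± 145 in anti-IgD with vehicle, against 9.96 ± 7.4 in PBS with PF-303 and 26.6 ± 4.81 in PBS with vehicle. Both were highest by far in anti-IgD with vehicle. The interaction was called for Nr4a3, at -2.28 ± 0.26 (limma adjusted p = 1.6e-05), but was -0.32 ± 0.19 for Egr2 (adjusted p = 0.32). Egr2 was lower with PF-303 in PBS-treated mice too, with a log2 fold change of -1.48 ± 0.13 (adjusted p = 6e-07). In PBS with PF-303 the means of both genes lay below the filter level and below the offset of 16. The sizes of these log2 values therefore depend on the offset, and no direction is drawn from the Egr2 interaction. The cytokine gene Lta fell by 0.81 ± 0.10 with anti-IgD under vehicle (adjusted p = 1.1e-06). After anti-IgD, 1 of the 11 was higher and 7 were lower with PF-303, against 19.8% and 10.3% of all genes, with a median of -0.49.

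**Figure D5:**
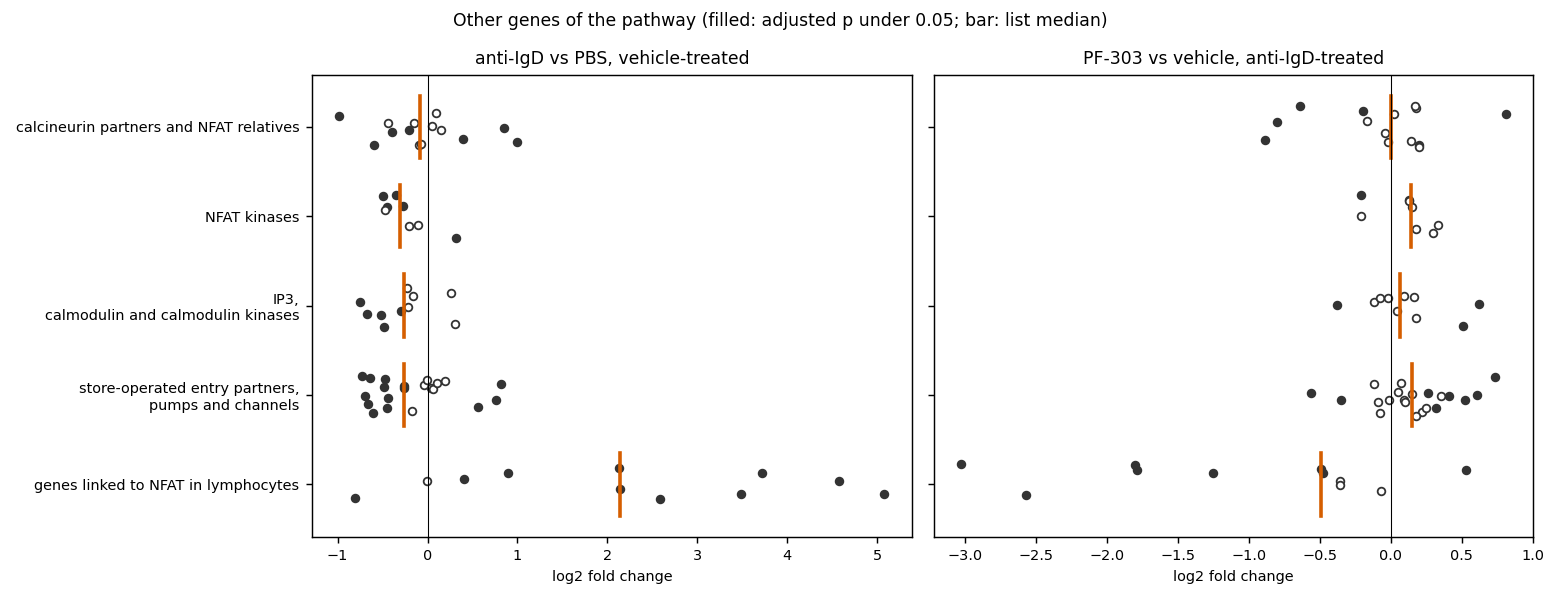
Log2 fold change of every tested gene in the 5 pathway lists, for anti-IgD against PBS under vehicle (left) and for PF-303 against vehicle after anti-IgD (right). Each point is a gene, filled points have an adjusted p under 0.05 over all genes, vertical scatter within a list carries no meaning, and bars are list medians. The NFAT-linked list reaches 5.08 on the left, whereas the median of every other list lies between -0.31 and -0.09.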

How the data were processed

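Per the submitters' processing notes, the authors made the deposited values with MAS5, as a linear signal intensity per probe set; its version and settings are not given in the sources used here. The arrays share a trimmed mean of 100, so a change is relative to the rest of an array. Signals were taken as log2(signal + 16). The 64 control probe sets and all that did not exceed 15.2, the median of the table, on at least 4 arrays were dropped, which left 24947 probe sets and 11104 genes, each gene by its probe set of highest mean log2 signal. The group means over 18 arrays were fitted with limma 3.58.1 in R 4.3.3 (lmFit, eBayes with trend), with two-sided p adjusted by Benjamini-Hochberg over all genes or probe sets and calls at 0.05. The fit was tested on simulated data. Precision is limited by the number of arrays; the anti-IgD response under vehicle had a median SE of 0.129 (log2).

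The members and lists were chosen with earlier results of these data known. Named are all members, per pathway list at most the 2 called genes with the largest rise and the 2 with the largest fall after anti-IgD, and the 3 genes most correlated with Nfatc1, Rcan1, Ppp3ca and Stim1. Probe sets were named by the platform annotation, updated through RefSeq (GRCm38.p6); a probe set shared with another gene was left out. The main fit did not pair samples by replicate number. Deviations of same-numbered arrays correlated at -0.14 to 0.22, which cannot settle whether the numbers pair the samples. Alternatives covered the offset, filter, scaling, choice of probe set, variance prior, arrays in the fit, replicate and position blocks, spike-in signal, and each array left out.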

Additional observations from a re-analysis of the deposited data

Results flagged for a closer look

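In the 10 genes and 4 groups, 40 sets of arrays were examined for an array far from the others, and 3 had one; chance gives about 1 in 20. Ppp3cb had a signal of 1005 in replicate 3 of PBS with PF-303, against 847 to 874 in the others of that group. Ppp3cc had 116 in replicate 1 of anti-IgD with vehicle, against 127 to 129 in the others. Ppp3r1 had 791 in replicate 4 of PBS with PF-303, against 713 to 732 in the others. Replicates 3 and 4 of PBS with PF-303 are among the 6 arrays of high spike-in signal. Their part in these values was not tested.

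The response of Orai1 to anti-IgD differed between PF-303-treated and vehicle-treated mice, with an interaction of -1.11 on the log2 scale by limma's test of the difference.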

How the results depend on the processing

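Across 1590 recomputed fold changes of the members, 1487 kept direction and side of the threshold, 50 lost a call, 29 gained one, 2 reversed, and 22 that were not called either way changed sign or came to 0. Both reversals were changes of sign of Ppp3cb with a gene's probe sets averaged. The values were 0.13 for anti-IgD against PBS under vehicle and -0.16 for PF-303 against vehicle after anti-IgD. Neither was called (limma adjusted p = 0.16 and 0.083), and the Ppp3cb probe sets disagree in sign. Of 308 recomputed counts of calls, 17 moved by over 1.5 times. The count of members called in the interaction, 1 as reported, was 3 with a filter at a signal of 50 and with probe sets averaged. It was 2 with arrays shifted to 1 median, with quantile normalization, without the 6 high spike-in arrays, with spike-in signal as a covariate, and with the probe set of highest linear mean, an alternative chosen after seeing the data. With 1 array left out it lay between 1 and 3. The genes added were Ppp3ca, Ppp3r1, Rcan1, Nfatc1, Nfatc3 or Ppp3cc, and the cause was not tested. Members called for PF-303 with PBS numbered 0, and 1 without the high spike-in arrays. Member probe sets called there numbered 2, but 0 with only the groups of the contrast in the fit and 1 without the high spike-in arrays. Those called in the interaction numbered 4, but 2 with the position row as a block, 1 without the high spike-in arrays, and 2 to 6 with 1 array left out.

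With the replicate block, 8 members were called for anti-IgD with vehicle, 7 for PF-303 after anti-IgD and 1 in the interaction, Orai1 at -1.17. The block ended the calls of Ppp3cb and Rcan1 and added Nfatc2 for PF-303 after anti-IgD. Arrays that correlated best with the array of their own number were 0 of 6 for anti-IgD with vehicle, 1 of 8 for PF-303 after anti-IgD, 2 of 8 for PF-303 with PBS and 5 of 10 for anti-IgD with PF-303. The interaction has no fit limited to fewer groups, and single probe sets have no averaged fit. The 4 Nfatc2 probe sets that failed the filter averaged 1.18 to 13.2 in the groups and were not tested.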
